A study of Homo sapiens with 4 samples.

Results

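The genes described here make, sense, activate, store and burn cholesterol and fatty acids. They are 42 named genes, each represented by a probe set that the platform annotation assigns to that gene alone. Where a gene had several such probe sets, the brightest one by mean RMA value was taken. Of the 42 genes, 38 were measured in this way, out of 19775 genes on the array. CYP51A1 and FADS1 had only probe sets shared with another gene, and FDFT1 and ACSL3 had no probe set under their names in the annotation used here, so these 4 carry no value below.

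The cells were PLC8024, a human hepatocellular carcinoma line, sorted by flow cytometry into a population carrying the surface protein CD133 and a population without it. CD133 is used to enrich tumour-initiating cells from liver cancers. No treatment or genetic change is given for either population. Total RNA, extracted with Trizol and labelled with biotin, was read on an oligonucleotide array. Each population is given in MAS5 (linear intensity) and in RMA (log2), so there is 1 CD133+ and 1 CD133- value in each processing. The processings are not replicates. With no replicate, no difference below has an error between sorts or cultures, no test was possible, and precision is limited by there being 1 array value per population.

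Cholesterol is built from acetyl-CoA through mevalonate, squalene and lanosterol, and most enzymes of this route are transcribed under SREBP2, a membrane-bound transcription factor that SCAP carries to the Golgi when sterols are low and INSIG1 holds back when sterols are high. Fatty acids are built from the same precursor by ACLY, ACACA and FASN, largely under SREBP1. In hepatocytes, fatty acids are bound by FABP1, joined to coenzyme A by ACSL enzymes, and then either esterified by DGAT enzymes and stored in droplets coated by PLIN2, or carried into mitochondria by CPT1A and CPT2 and oxidised. PPAR-alpha and its coactivator PGC-1alpha, encoded by PPARGC1A, drive many genes of uptake and oxidation.

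PROM1, the gene of CD133, had an RMA value of 10.35 in CD133+ against 6.04 in CD133-, in the direction of the labels. A gene was taken as above the floor when its higher RMA value was at least the median of all probe sets in that population, which was 5.16 in CD133+ and 5.14 in CD133-. This held for 13116 genes, and their median RMA difference, CD133+ minus CD133-, was 0.00. The central 95% of these RMA differences ran from -0.78 to 0.96. As a measure of technical spread, the RMA differences of 2 probe sets of one gene differed with an SD of 0.35 over 6170 genes, and the MAS5 log2 ratios with an SD of 0.79. A gene was counted at 2-fold or at 1.5-fold when it was above the floor and passed that fold in the same direction in both processings.

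The lipid genes of this set lay slightly to the CD133- side, and the genes with the largest RMA differences were FABP1, PPARGC1A, ACSL1, PLIN2 and DGAT1. Of the 38 measured genes 37 were above the floor. None was counted as higher in CD133+ at either fold. At 2-fold 1 gene was counted as lower, PPARGC1A, where 1.09% of all genes above the floor were counted as lower and 2.25% as higher, or 3.34% in either direction. At 1.5-fold all 5 of the genes just named were lower. They make up 13.5% of the 37, where 4.17% of all genes above the floor were lower and 5.32% were higher at this fold, or 9.49% in either direction. The median RMA difference of the 37 genes was -0.25, and 29 of them, or 78.4%, were below 0 in RMA, against 49.9% of all genes. Both processings were below 0 in 25 of the 37, or 67.6%, against 39.1% of all genes, and both were above 0 in 8, against 38.8% of all genes. These counts depend on the processing: the genes lower at 1.5-fold were 9 in MAS5 alone, with FADS2 higher, and 3 with the median over a gene's probe sets, which left 0 at 2-fold. Only FABP1, PPARGC1A and ACSL1 lay outside the central 95% of all genes in RMA. The genes of the set were chosen with earlier results of these data known, so the shares above are not read as a trait of lipid genes at large. Of 74 other genes of these pathways, described below, 43.2% were below 0 in both processings. In a bulk population, fewer cells that express a gene and less RNA of it per cell cannot be told apart.

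**Figure D1:**
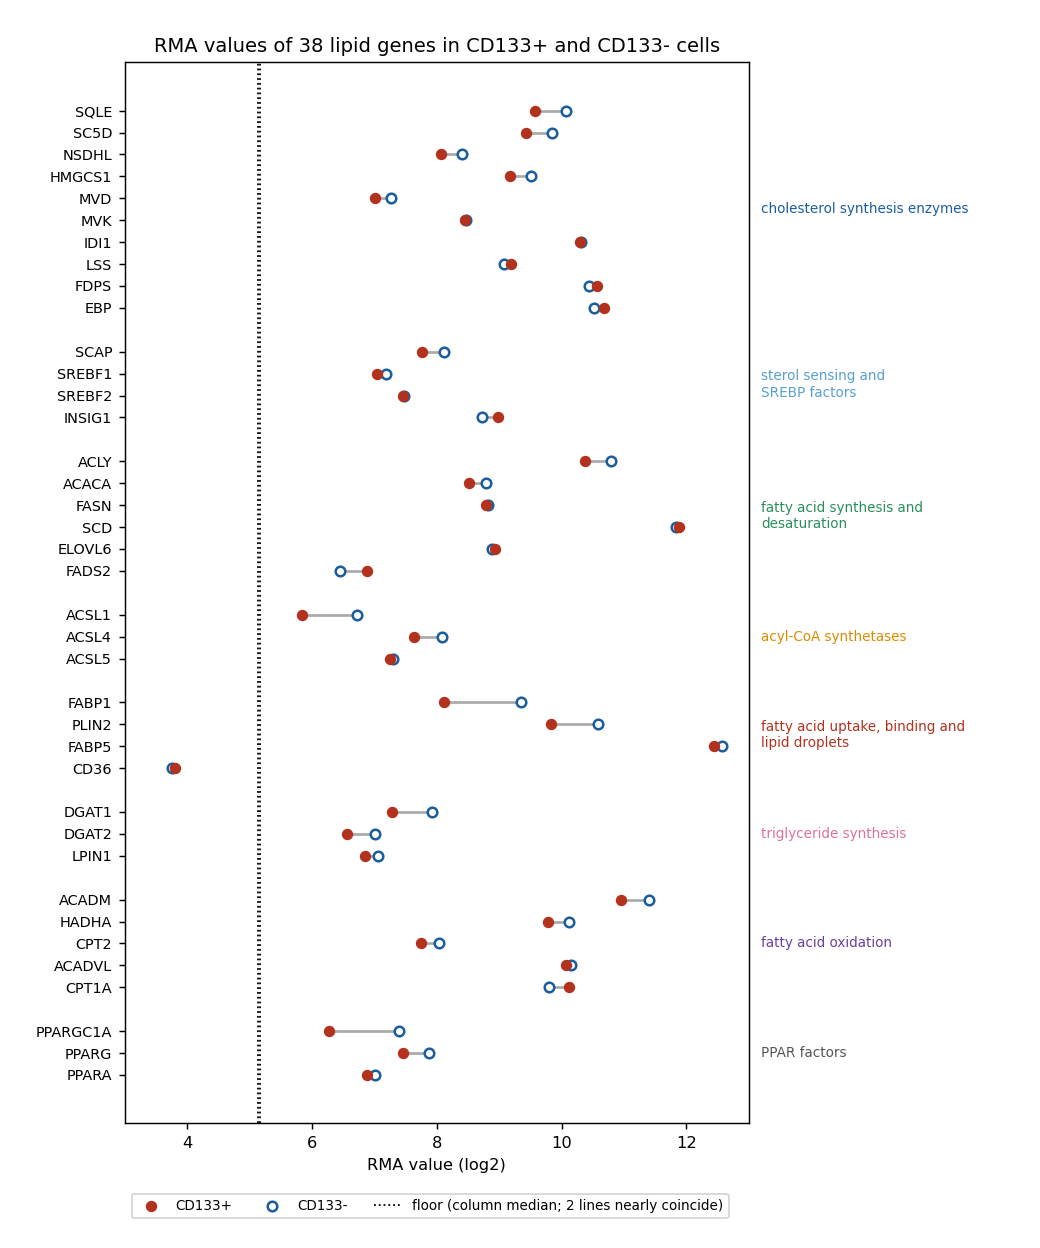
RMA values on the log2 scale (x axis) of the 38 measured genes (rows, grouped by role) in CD133+ (filled) and CD133- (open) cells, 1 value each. Dotted lines mark the floor of each column, 5.16 and 5.14. The widest gaps are those of FABP1, PPARGC1A, ACSL1, PLIN2 and DGAT1, all with the CD133+ value on the left, and CD36 alone lies below the floor.

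**Figure D2:**
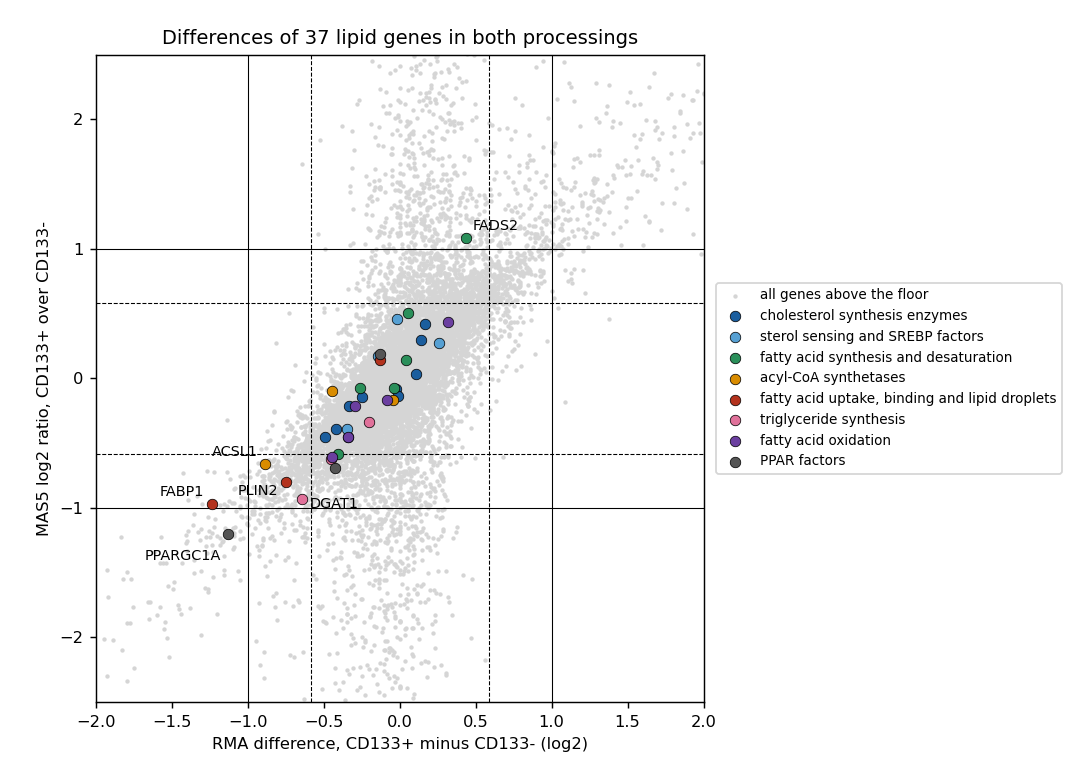
RMA difference (x axis) against MAS5 log2 ratio (y axis) of the 37 genes above the floor, coloured by role, over all 13116 genes above the floor (grey; those beyond the axes are not drawn). Solid lines mark 2-fold and dashed lines 1.5-fold. PPARGC1A is past 2-fold in both processings, and FABP1 misses it in MAS5 only.

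The enzymes of cholesterol synthesis differed little between the populations in the probe sets used. All 10 measured enzymes were above the floor, none was counted at either fold, and their median was -0.13 in RMA and -0.14 in MAS5, with RMA differences from -0.49 to 0.16. Those below 0 in both processings numbered 7. At the entry of the route, HMGCS1, which condenses acetyl units into HMG-CoA, had an RMA value of 9.18 in CD133+ against 9.51 in CD133-, and MAS5 intensities of 2614 and 3029. MVK, the mevalonate kinase, had RMA values of 8.44 and 8.47 in the same order. Its other probe sets above the floor had RMA differences of -0.24 and -0.32 and MAS5 log2 ratios of -1.12 and -0.97. MVD, which makes isopentenyl pyrophosphate, had values of 7.01 and 7.26. Among the probe sets used, HMGCS1 had the lowest RMA difference of these 3, -0.33, and its second probe set had -0.23. Downstream, IDI1, the isomerase of isopentenyl pyrophosphate, had RMA values of 10.30 and 10.31. FDPS, which makes farnesyl pyrophosphate, had 10.57 in CD133+ and 10.43 in CD133-.

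Past farnesyl pyrophosphate the enzymes lay on both sides of 0. SQLE, the squalene epoxidase and a rate-controlling step, had an RMA value of 9.57 in CD133+ against 10.07 in CD133-, with MAS5 intensities of 3468 and 4736. This was the largest RMA difference of the route, 1.41-fold lower in RMA and 1.37-fold in MAS5, and its other probe sets above the floor had RMA differences of -0.40 and -0.26. LSS, which closes squalene epoxide into lanosterol, had 9.18 and 9.07, with -0.35 and 0.52 in its other probe sets. NSDHL, which removes carbons from the lanosterol ring, had 8.07 and 8.41, and its second probe set had an RMA difference of -0.62. EBP, a sterol isomerase, had 10.68 and 10.51, and SC5D, the desaturase after it, had 9.42 and 9.85. Over the whole route, SQLE, SC5D, NSDHL and HMGCS1 were on the CD133- side in the probe sets used. EBP, FDPS and LSS were on the CD133+ side. All these differences were less than 1.5-fold, and only those of SQLE and SC5D exceeded the SD of 0.35 between 2 probe sets. The second NSDHL probe set was past 1.5-fold lower in both processings, with a MAS5 log2 ratio of -0.87.

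Genes that sense sterols and switch this route had small differences with no common direction in the probe sets used. SREBF2, which encodes SREBP2, had an RMA value of 7.45 in CD133+ against 7.47 in CD133-, but MAS5 intensities of 362 and 263, so that the MAS5 log2 ratio was 0.46 where RMA gave -0.02. SREBF1, which encodes SREBP1, had RMA values of 7.04 and 7.18 and a MAS5 log2 ratio of 0.17. The processings thus disagreed in sign for both SREBP genes in the probe sets used. The other SREBF1 probe set had -0.10 in RMA and -0.89 in MAS5. The other SREBF2 probe sets had RMA differences of -0.22 and 0.06 and MAS5 log2 ratios of -0.30 and -0.47. The MAS5 direction of both genes therefore depended on the probe set. SCAP, the escort of the SREBPs, had 7.76 in CD133+ and 8.11 in CD133-, with log2 differences of -0.35 in RMA and -0.39 in MAS5. INSIG1, which retains SCAP and is itself an SREBP target, had 8.98 in CD133+ and 8.72 in CD133-. It was the one gene of these 4 above 0 in both processings, and its 3 probe sets had RMA differences of 0.26, 0.09 and 0.60.

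Genes of fatty acid synthesis and desaturation had a median of 0.00 in RMA and 0.03 in MAS5. Of the 6 measured, 3 were above and 3 below 0, and none was counted, where 9.49% of all genes were at 1.5-fold. ACLY, which cleaves citrate to cytosolic acetyl-CoA, had an RMA value of 10.38 in CD133+ against 10.78 in CD133-, and MAS5 intensities of 6244 and 9385. Its 3 probe sets had RMA differences of -0.41, -0.43 and -0.34, all on the CD133- side. ACACA, the acetyl-CoA carboxylase that makes malonyl-CoA, had 8.52 and 8.78, with 0.13 in its other probe set. FASN, the fatty acid synthase, had 8.78 and 8.82 and a MAS5 log2 ratio of -0.08. ELOVL6, which lengthens palmitate, had 8.94 and 8.89, with RMA differences of 0.48 and 0.08 in its other probe sets.

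The desaturases depended on the probe set. SCD, which makes oleate from stearate, had an RMA value of 11.87 in CD133+ against 11.83 in CD133- in its brightest probe set, the one used. Its other 3 probe sets had RMA differences of -0.35, -0.70 and -0.71 and MAS5 log2 ratios of -0.62, -0.97 and -0.77, so that SCD was level in 1 probe set and lower in CD133+ in 3. FADS2, the desaturase that starts the polyunsaturated route, had 6.89 in CD133+ and 6.45 in CD133-, with MAS5 intensities of 203 and 95.9. Its log2 differences were 0.44 in RMA and 1.08 in MAS5, the highest of all 37 genes in each, while a second probe set gave -0.07 in RMA and 1.45 in MAS5. It did not reach 1.5-fold in RMA and was not counted.

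Among the genes of fatty acid activation, ACSL1 differed most. ACSL1, the main acyl-CoA synthetase of liver, had an RMA value of 5.84 in CD133+ against 6.72 in CD133-, and MAS5 intensities of 316 and 499. That is 1.85-fold lower in RMA and 1.58-fold in MAS5, and its second probe set had log2 differences of -0.61 and -0.76. ACSL4, which prefers arachidonate, had RMA values of 7.63 and 8.08 but MAS5 intensities of 1799 and 1926. In its other 2 probe sets ACSL4 had RMA differences of -0.77 and -0.72 and MAS5 log2 ratios of -0.85 and -0.58, so that the probe set used gave the smallest difference of the 3. ACSL5, an isoform abundant in intestine, had 7.25 and 7.29, with 0.57 in its other probe set.

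Among the genes that bind fatty acids and coat lipid droplets, FABP1 and PLIN2 were lower in CD133+ and FABP5 was level. FABP1, the liver fatty acid binding protein, had an RMA value of 8.11 in CD133+ against 9.35 in CD133-, and MAS5 intensities of 964 and 1889. It was 2.36-fold lower in RMA and 1.96-fold in MAS5, the largest RMA difference of the 37 genes. The second probe set of FABP1 was lower by 0.91 in RMA and by 0.30 in MAS5 on the log2 scale. PLIN2, the droplet coat protein, had RMA values of 9.84 and 10.58 and MAS5 intensities of 4772 and 8300.3. It was 1.68-fold lower in RMA and 1.74-fold in MAS5, and its only other probe set was below the floor with an RMA difference of 0.33. FABP5, the epidermal form, which many tumours express, had 12.44 and 12.57, with a MAS5 log2 ratio of 0.14. CD36, a fatty acid uptake receptor, had RMA values of 3.80 and 3.75, and none of its 5 probe sets was above the floor in either population.

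The 3 genes of triglyceride synthesis were all below 0 in both processings. DGAT1, which adds the third acyl chain, had an RMA value of 7.28 in CD133+ against 7.93 in CD133-, and MAS5 intensities of 588 and 1123. This was 1.56-fold lower in RMA and 1.91-fold in MAS5, from its single probe set. DGAT2, an unrelated enzyme for the same step, had 6.56 and 7.02, and its probe sets had RMA differences of -0.45 and -0.68 and MAS5 log2 ratios of -0.62 and -0.73. LPIN1, a phosphatidate phosphatase that makes diacylglycerol, had 6.85 and 7.06, with -0.74 in its other probe set above the floor. DGAT2 and LPIN1 were not counted. Over the 9 genes of activation, binding, droplets and triglyceride synthesis above the floor, a grouping made after the values were seen, all 9 were below 0 in RMA, where 49.9% of all genes were, and 4 were lower at 1.5-fold, where 4.17% of all genes were. Their median was -0.45. Since the grouping followed the values, nothing is read from these counts.

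Genes of mitochondrial fatty acid oxidation had a median of -0.30 in RMA and -0.21 in MAS5. None of 5 was counted, where 9.49% of all genes were at 1.5-fold. ACADM, the medium-chain acyl-CoA dehydrogenase, had an RMA value of 10.95 in CD133+ against 11.40 in CD133-, and MAS5 intensities of 8225 and 12534. It was 1.36-fold lower in RMA and 1.52-fold in MAS5. HADHA, a subunit of the trifunctional protein, had 9.78 and 10.12, and its 3 probe sets lay between -0.47 and -0.33. ACADM, with 1 probe set, and HADHA were thus on the CD133- side, whereas ACADVL, the very-long-chain dehydrogenase, was at 10.07 and 10.15. CPT2, the inner carnitine palmitoyltransferase, had 7.74 and 8.04, with 0.16 in its other probe set. CPT1A, the outer one and the gate of the pathway, had 10.11 in CD133+ and 9.79 in CD133-, the one gene of the 5 above 0. Its other 3 probe sets had RMA differences of -0.62, -0.49 and 0.03, so its direction depended on the probe set.

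Among the PPAR factors, the coactivator differed most. PPARGC1A had an RMA value of 6.27 in CD133+ against 7.40 in CD133-, and MAS5 intensities of 233 and 538. It was 2.19-fold lower in RMA and 2.30-fold in MAS5, and the remaining probe set was below the floor at 0.03. PPARG, the PPAR of fat storage, had RMA values of 7.45 and 7.88 and MAS5 intensities of 610.4 and 987, which is 1.34-fold and 1.62-fold lower. PPARA, the PPAR of liver fatty acid oxidation, had 6.89 and 7.01 and a MAS5 log2 ratio of 0.19. All 5 of its probe sets above the floor had an RMA difference below 0, from -0.43 to -0.03.

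The genes differed in how well their probe sets spoke together. Of the 37 genes 26 had at least 2 probe sets above the floor, and in 15 of these all such probe sets had the same sign. Among the 5 genes lower at 1.5-fold, FABP1 and ACSL1 had a second probe set above the floor with the same direction, while PLIN2, DGAT1 and PPARGC1A rested on 1 probe set each. As a description across the 37 genes, which share their arrays, the processings correlated at 0.898 (Pearson) and 0.903 (Spearman). Signs differed between the processings in the probe sets used of 4 genes, SREBF1, SREBF2, FABP5 and PPARA.

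**Figure D3:**
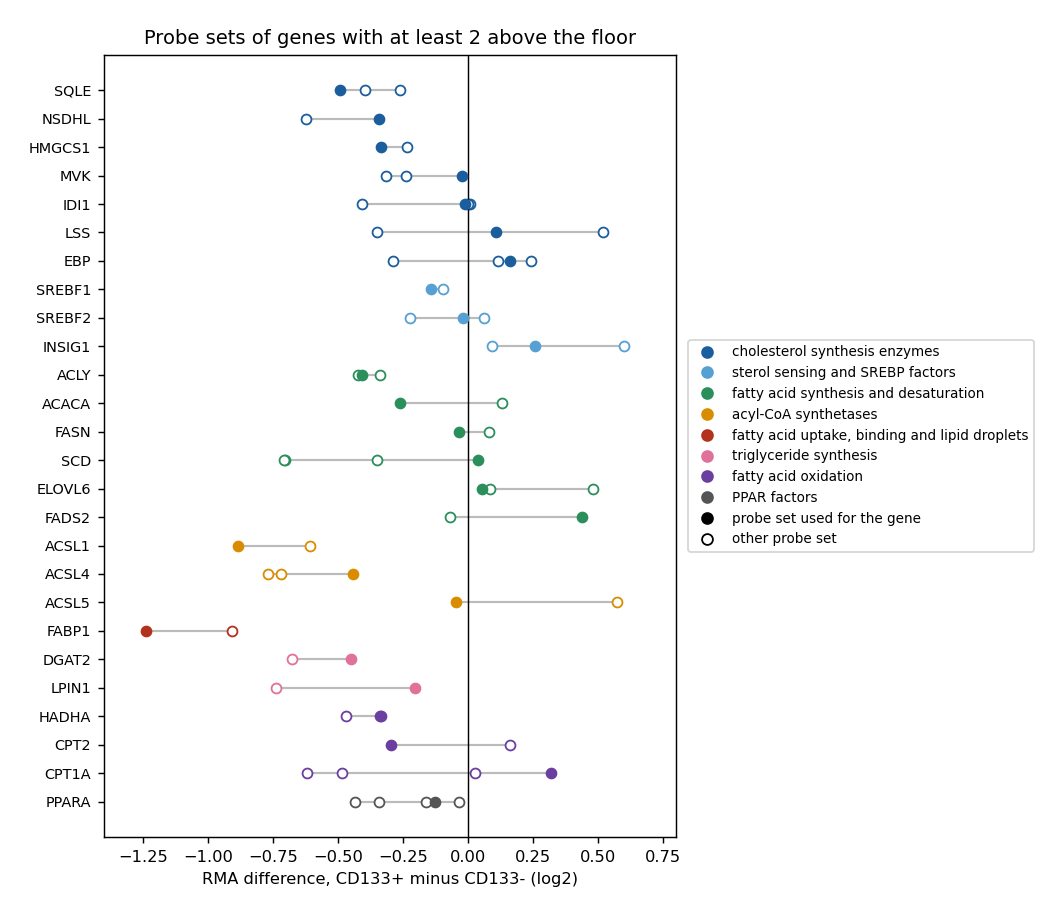
RMA difference, CD133+ minus CD133- (x axis, log2), of every probe set above the floor in the 26 genes with at least 2 of them. Filled points are the probe sets used and open points the others, coloured by role. FABP1, ACSL1, ACSL4, ACLY and HADHA stay left of 0 in all, while SCD and CPT1A spread from 0.04 and 0.32 down to -0.71 and -0.62.

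Set side by side, cholesterol synthesis, fatty acid synthesis and fatty acid oxidation had median RMA differences of -0.13, 0.00 and -0.30, against 0.00 over all genes above the floor. Their ranges overlapped, from -0.49 to 0.16, from -0.41 to 0.44 and from -0.45 to 0.32. No gene of the 3 pathways was counted at 1.5-fold, where 9.49% of all genes were. With so few genes per pathway, nothing is read from this. Further sterol, fatty acid synthesis, and oxidation and ketone genes, described below, had median RMA differences of -0.02, -0.05 and -0.13. Without probe sets ending in _x_at or _s_at, the oxidation median of the main set was -0.0857. Whether these medians differ was not tested. The median of -0.45 given above for activation, binding, droplets and triglycerides is not set beside these, since that grouping followed the values.

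Other genes of these pathways, from lists of 96 genes of which 74 were above the floor, were spread around 0 with a median RMA difference of -0.05. Of the 74, 55.4% were below 0 in RMA and 43.2% in both processings, beside 49.9% and 39.1% of all genes. At 2-fold 2 were higher and 1 was lower, and at 1.5-fold 4 were higher and 6 were lower, where the shares over all genes were 2.25% and 1.09% at 2-fold and 5.32% and 4.17% at 1.5-fold. Among 17 further sterol genes, none was higher and 3 were lower at 1.5-fold, beside the same 5.32% and 4.17% over all genes. SCARB1, the HDL receptor, had an RMA value of 10.12 in CD133+ against 11.43 in CD133-, which is 2.47-fold lower in RMA and 2.24-fold in MAS5. NPC1, which exports cholesterol from lysosomes, was 1.86-fold lower in RMA and 1.79-fold in MAS5. MYLIP, a ubiquitin ligase for lipoprotein receptors that was chosen after its values were seen, had log2 differences of -0.89 and -2.32.

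Among 15 further fatty acid synthesis genes, 3 were higher at 1.5-fold and none was lower, beside 5.32% and 4.17% over all genes. ELOVL3, which makes very long saturated chains, had an RMA value of 7.12 in CD133+ against 5.86 in CD133-, with log2 differences of 1.25 in RMA and 1.32 in MAS5. ELOVL2, which lengthens polyunsaturated chains, had RMA values of 9.30 and 8.48 and log2 differences of 0.83 and 1.02, with 0.49 in its other probe set. ELOVL4, chosen after its values were seen, had log2 differences of 0.65 and 0.88. All 3 are elongases, but the other elongases of these lists did not share the size in RMA in the probe sets used. ELOVL5 had an RMA difference of -0.13, ELOVL7 of -0.05 and ELOVL6 of 0.05. ELOVL6 had 0.50 in MAS5, and another of its probe sets had 0.48 in RMA and 0.42 in MAS5.

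Of 21 further oxidation and ketone genes, 1 was higher and 2 were lower at 1.5-fold, beside 5.32% and 4.17% over all genes. EHHADH, the bifunctional enzyme of peroxisomal oxidation and a textbook PPAR-alpha target, had an RMA value of 6.22 in CD133+ against 4.73 in CD133-. The CD133- value is under the floor, so that no fold or difference is given, and the gene enters the counts through its CD133+ value alone. SLC25A20, the carrier of acylcarnitines into mitochondria, had log2 differences of -0.89 and -0.76. CPT1C, the neuronal isoform of the outer transferase, was chosen after its values were seen and had -0.76 and -1.73. Of 21 further uptake, binding, droplet and triglyceride genes 1 was lower, ABHD5, the activator of adipose triglyceride lipase, at -0.63 and -0.69. SLC27A2, a fatty acid transporter, had 0.41 and 0.30 and was not counted. The median of these 21 genes was 0.02. The 9 main genes of the same roles had -0.45, but they were grouped after their values were seen. Whether these differ was not tested, and nothing is read from the contrast.

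**Figure D4:**
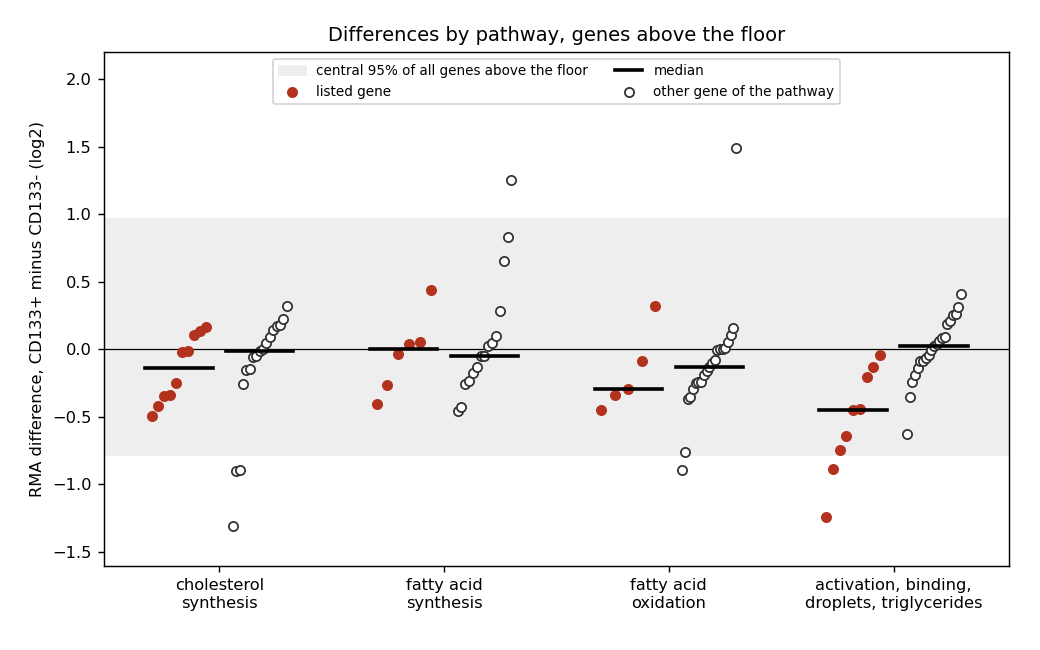
RMA difference, CD133+ minus CD133- (y axis, log2), by pathway (x axis) for genes above the floor. Filled points are the genes of the main set, open points are other genes of the pathway, bars are medians and the grey band is the central 95% of all genes, from -0.78 to 0.96. The main genes of activation, binding, droplets and triglycerides, a grouping made after the values were seen, all lie below 0. Their median is -0.45 and that of the other genes 0.02, and nothing is read from this contrast.

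Promoter windows show a sequence feature that was not used to choose the genes. RefSeq windows of GRCh38.p14, from 250 bases before to 50 bases after a transcript start, matched 36 of the 42 genes. FDFT1, FASN, SQLE, DGAT1, DGAT2 and FABP5 had no window. Searched on both strands were CCAAT, the box bound by NF-Y, which works with SREBP on sterol genes, TCACNCCAC, the core of the sterol regulatory element, AGGNCA repeated in the same direction with 1 base between, the element bound by PPAR with RXR, and CAAAGTCCA, an HNF4 site. None of the 4 motifs contains another. CCAAT was in a window of 9 of the 10 cholesterol synthesis genes searched, all but CYP51A1. It was in 4 of 6 fatty acid synthesis genes, in 0 of 5 fatty acid oxidation genes and in 39.7% of 27305 genes with a window. Counted over windows, that is 11 of 14 for cholesterol synthesis and 34.6% of all 35116 windows. The sterol element core was in 2 of the 36 genes, SREBF2 and ACSL1, against 1.39% of all genes. The PPAR repeat was in none of the 36 and in 0.377% of all genes, and the HNF4 site was in HMGCS1 alone and in 0.472% of all genes. Only exact matches were searched for, so a sequence that differs from a motif by 1 letter is not counted. A match is a description of these letters, and no match says only that they are not in this window.

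Shown are the 250 bases before the start of 2 cholesterol synthesis genes with 5 CCAAT matches each, and of SREBF2 with the sterol element core. Also shown are those of FABP1 and PLIN2, which were lower in CD133+ and hold no exact match to the 4 motifs. They are read 5′ to 3′ along the gene's strand from RefSeq, GRCh38.p14. Capitals mark motif matches, and ATTGG is CCAAT on the other strand. The windows are chr12:109573544-109573793, plus strand for MVK, chrX:152830813-152831062, plus strand for NSDHL, chr22:41832855-41833104, plus strand for SREBF2, chr2:88128063-88128312, minus strand for FABP1 and chr9:19127493-19127742, minus strand for PLIN2.
MVK: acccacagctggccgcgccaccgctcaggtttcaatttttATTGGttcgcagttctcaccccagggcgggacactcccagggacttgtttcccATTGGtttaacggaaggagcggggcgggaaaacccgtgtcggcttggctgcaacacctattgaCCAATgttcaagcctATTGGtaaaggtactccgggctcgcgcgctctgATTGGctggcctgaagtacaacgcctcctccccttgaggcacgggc
NSDHL: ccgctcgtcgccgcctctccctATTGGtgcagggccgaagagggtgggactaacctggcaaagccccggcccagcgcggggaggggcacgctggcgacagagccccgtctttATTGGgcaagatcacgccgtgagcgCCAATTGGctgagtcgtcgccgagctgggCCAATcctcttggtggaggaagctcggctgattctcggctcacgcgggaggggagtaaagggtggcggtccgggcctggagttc
SREBF2: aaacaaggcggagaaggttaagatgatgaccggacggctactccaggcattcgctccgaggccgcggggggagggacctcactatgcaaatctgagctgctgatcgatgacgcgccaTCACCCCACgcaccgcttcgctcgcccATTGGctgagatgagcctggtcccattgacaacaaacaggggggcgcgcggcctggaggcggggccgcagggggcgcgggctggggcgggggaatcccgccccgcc
FABP1: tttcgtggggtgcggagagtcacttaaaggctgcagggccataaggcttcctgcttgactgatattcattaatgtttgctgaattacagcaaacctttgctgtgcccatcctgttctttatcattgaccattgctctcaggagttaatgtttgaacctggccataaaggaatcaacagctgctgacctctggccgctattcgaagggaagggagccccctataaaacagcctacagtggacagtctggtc
PLIN2: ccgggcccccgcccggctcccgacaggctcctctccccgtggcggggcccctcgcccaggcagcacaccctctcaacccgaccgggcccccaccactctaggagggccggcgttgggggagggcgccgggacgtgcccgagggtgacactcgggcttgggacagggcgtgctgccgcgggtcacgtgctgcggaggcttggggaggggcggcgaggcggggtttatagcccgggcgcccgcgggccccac
The MVK and NSDHL windows carry their CCAAT boxes spread over the region, and 2 of those in NSDHL overlap as CCAATTGG. No relation between these motifs and the expression differences was tested, and ACSL1, lower at 1.5-fold, holds both a CCAAT box and the sterol element core.

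**Figure D5:**
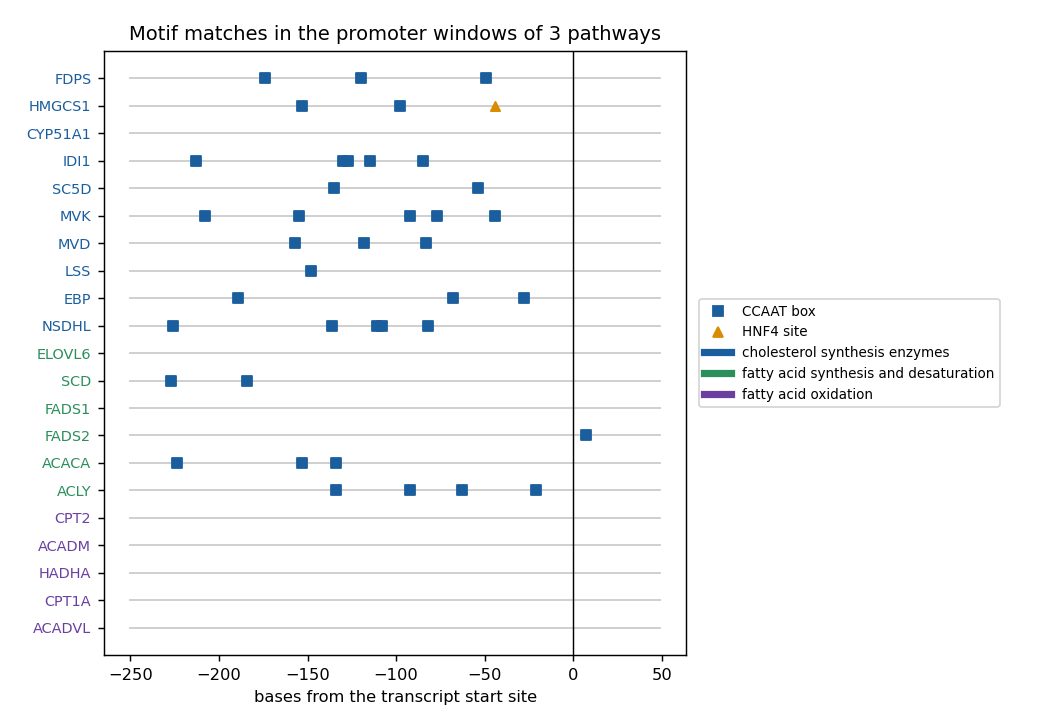
Positions of CCAAT boxes (squares) and of the HNF4 site (triangle) in bases from the transcript start site (x axis). Rows are the genes of 3 pathways with a promoter window in the search. Windows of one gene's several start sites are drawn on 1 line. CCAAT boxes are in 9 of 10 cholesterol synthesis genes, 4 of 6 fatty acid synthesis genes and 0 of 5 fatty acid oxidation genes.

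3 hepatocyte genes were on the same side as FABP1 and the storage genes, by larger differences. Of 10 hepatocyte and hepatoma markers 8 were measured and all 8 were above the floor. ALB, AFP and APOA1 had RMA differences of -3.42, -2.78 and -1.80, while APOB, SERPINA1, KRT8, KRT18 and TTR lay between -0.33 and 0.28. The summed MAS5 intensity of the markers was 106827 in CD133+ and 127624 in CD133-. Among markers of other cells, 3 of 5 measured leukocyte markers, 1 of 5 endothelial, 2 of 6 fibroblast and stellate cell, 2 of 2 erythroid and 1 of 5 adipocyte markers were above the floor. Their summed MAS5 intensities in CD133+ and CD133- were 10431 and 4178 for leukocyte, 303.3 and 959 for endothelial, 914.0 and 505 for fibroblast and stellate cell, 210.1 and 174 for erythroid and 737 and 831 for adipocyte markers. LYZ, at RMA values of 11.14 and 9.42, made up most of the leukocyte sum, and PECAM1, at 6.11 and 7.87, most of the endothelial sum. Below the floor in both populations were PTPRC and CD14, the endothelial CDH5, VWF, KDR and TEK, the fibroblast COL1A2, COL3A1, LUM and PDGFRB, and the adipocyte ADIPOQ, LEP, PLIN1 and FABP4. Above it, beside LYZ and PECAM1, were CD3E, LAPTM5, COL1A1, DCN, HBB, ALAS2 and CFD. The part of the hepatocyte genes in the lipid gene differences was not tested.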

How the data were processed

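The authors deposited MAS5 values as linear intensities and RMA values as log2 values, per the labels. The submitters' processing notes name GCOS, MAS5 and RMA. Tool versions and the arrays normalized together are not given there or in the labels. Of 54675 probe sets, 41097 had 1 gene in the platform annotation, 1801 had several and 11777 had none. Symbols were updated through gene IDs in a RefSeq table of GRCh38.p14.

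Differences were computed with Python 3.11.15, pandas 2.3.3 and numpy 2.4.6 as RMA CD133+ minus CD133- and as the log2 of the MAS5 ratio. The pick of probe sets, the floor and the 2-fold count rule were checked on simulated data with less noise than the spread between probe sets. That check says nothing on the 1.5-fold counts. No test was run, since each population has 1 value per processing. For a gene under the floor in 1 population no fold or difference is given, although the count rule includes it. All measured genes of the set are named. Of the other pathway genes, those counted at 2-fold and, in each list, the 2 with the largest RMA difference are named, unless said otherwise. The genes, their role groups and the lists were chosen with earlier results of these data known. Alternatives were MAS5 alone, MAS5 with a pseudocount of 50, the median over probe sets, no _x_at or _s_at probe sets, no floor, a floor at the 75th percentile, and centring.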

Additional observations from a re-analysis of the deposited data

How the results depend on the processing

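MAS5 alone raised the genes lower at 1.5-fold from 5 to 9 and gave 1 gene higher at both folds, FADS2. The median over a gene's probe sets left 3 genes lower at 1.5-fold and 0 at 2-fold, since PPARGC1A and PLIN2 then include a probe set below the floor. The sterol sensing median, over the probe sets used, turned to 0.22 in MAS5 and 0.21 with the pseudocount. The acyl-CoA synthetase median was -0.17 in MAS5, -0.15 with the pseudocount, -0.24 with the higher floor, which removes ACSL1, -0.72 with the median over probe sets and -0.83 when probe sets ending in _x_at or _s_at were left out. The uptake, binding and droplet median was -0.21 with the median over probe sets and -0.44 with no floor, which lets CD36 in. Without probe sets ending in _x_at or _s_at, oxidation was at -0.0857. In that setting triglyceride synthesis was at -0.21, which is LPIN1 alone, and the PPAR factors, without PPARG, were at -0.63. The PPAR factors were at -0.69 in MAS5 and -0.65 with the pseudocount. The cholesterol synthesis median stayed between -0.19 and -0.13 and that of fatty acid synthesis between -0.07 and 0.03 under all 7 alternatives. Leaving out probe sets ending in _x_at or _s_at removed 9 of the 38 genes (ACLY, ACSL5, DGAT1, DGAT2, FABP5, FASN, MVD, PPARG and SCD). For every value that moved, unless said, the cause was not tested. No paired analysis was possible because each population has 1 sample per processing and the labels give no replicate numbers. With 1 array per population and processing, signal over background could be judged only by the floor.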
